A study of Mus musculus with 19 samples.

Results

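Leukemic stem and progenitor cells from mice treated with AG-221 were compared directly with those from mice treated with 5-azacytidine (5-Aza), across all genes. The 8 libraries, of 19 in the series, were chosen by their labels and column headers and not by any measured value. The 4 AG-221 libraries (AG1, AG8, AG12 and AG13) came from Idh2 R140Q;Flt3-ITD mice with acute myeloid leukemia, and the 4 5-Aza libraries (AZ10, AZ11, AZ16 and AZ17) from leukemic mice labelled Tet2-/-;Flt3-IDT. Both arms carried the internal tandem duplication of Flt3, both were C57BL/6, and in both the cells were lin-Sca+cKit+, a phenotype that holds hematopoietic stem cells and early progenitors; they were sorted and used without culture. Over 4 to 5 weeks the mice received AG-221 by mouth 2 times daily, in doses of 100 mg/kg (alone) or 40 mg/kg (combined with another agent), and the labels do not say which dose each library had. The 5-Aza mice received 4 cycles of 21 days, each with 5 daily injections of 5 mg/kg, and the series' text also writes decitabine for this drug. Genotype, drug, and the route and length of treatment differ together between the arms, so their parts in any difference cannot be told apart. As a measure of the line difference without the drugs, 3 vehicle libraries of the Idh2 R140Q;Flt3-ITD line (IDH2-FLT3 vehicle) were compared with 4 of the Tet2-/-;Flt3-IDT line (TET2-FLT3 vehicle), which share no library with the treated comparison. Untreated wild-type (WT) mice gave 4 libraries. The labels give no ages and no promoter or Cre for the alleles, and do not say whether each library came from a separate animal.

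Isocitrate dehydrogenase converts isocitrate to 2-oxoglutarate, and the mutant IDH2 enzyme makes 2-hydroxyglutarate instead, which inhibits dioxygenases that use 2-oxoglutarate, TET2 among them. TET2 oxidizes 5-methylcytosine as a step of DNA demethylation, so both alleles act on the same pathway, and AG-221 inhibits the mutant IDH2 enzyme. 5-Aza is a cytidine analogue that is built into nucleic acids and traps DNA methyltransferases. FLT3 is the receptor of a cytokine that stem and early progenitor cells use and that dendritic cell development needs, and the internal tandem duplication keeps it signalling without ligand.

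The treated libraries held 9913084 to 11988449 assigned counts in the AG-221 arm and 12109035 to 13133042 in the 5-Aza arm. Levels are CPM, the counts scaled to a common library size, listed for the libraries in the order given above, and fold changes are AG-221 over 5-Aza on the log2 scale, ± standard error. Of 33862 accessions, 11830 were tested, and a gene is called where the Benjamini-Hochberg adjusted p of edgeR's quasi-likelihood test was under 0.05. In a principal component analysis of the 8 libraries the first component held 35.6% of the variance, and AG13 lay farthest from the 5-Aza libraries on it (81.2), AG1 nearest (-8.94), with 5-Aza from -48.0 to -24.5. Idh2 stood at 273, 123, 204 and 154 CPM in the AG-221 libraries and 307, 258, 229 and 360.0 CPM in the 5-Aza libraries (log2 fold change -0.61 ± 0.36, adjusted p = 0.546), and the arms overlapped. Tet2 stood at 152, 90.2, 116 and 161 CPM in the AG-221 libraries and 88.8, 107, 59.6 and 36.4 CPM in the 5-Aza libraries (0.83 ± 0.31, adjusted p = 0.274). Whole-gene counts check neither a point mutation nor a deletion of part of a gene, so the labels were not tested by them. Flt3 stood at 353, 234, 239 and 404 CPM in the AG-221 libraries and 159.8, 304, 137 and 316 CPM in the 5-Aza libraries (0.42 ± 0.41, adjusted p = 0.753), also overlapping. Of the markers of the sort, Ly6a was listed at 0 counts in every treated library and Kit did not pass the expression filter, so the gate could not be checked by them. In these bulk samples fewer cells of a type and less RNA per cell cannot be told apart.

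Between the treated arms 88 accessions were called, 0.744% of those tested. Of these, 65 were higher with AG-221 (0.549%) and 23 were higher with 5-Aza (0.194%). Among the 65 were 7 genes of the conventional dendritic cell list, 2 of MHC class II and 4 of the mast cell, basophil and eosinophil list. Among the 23 were 2 genes of the interferon-induced list, which does not hold Gbp2b, another of the 23 that interferon induces. The libraries of the arms did not overlap for 75 of the 88, where 10.7% of all accessions tested did not overlap. The median difference was 4.43 for the 65 and -3.52 for the 23, against 0.016 for all accessions tested. With the 4 genes that had 0 counts in all libraries of an arm set at their lower bound, both medians stayed at those values. Because the 88 were called from these same libraries, the non-overlap and the medians are partly set by that choice and test nothing.

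The set of called genes depended on single libraries and on the tool, since DESeq2 called 372 and limma-voom 944. Leaving out AG13 left 38 calls (0.323%), 35 of them among the 88, and leaving out AG1 gave 197 calls (1.67%). Of the 65 genes higher with AG-221, AG13 was the highest AG-221 library in 51 and AG1 the lowest in 50. All 65 were still called without AG1, 60 without AG8 and 57 without AG12, but 19 without AG13 and without AZ17, 13 without AZ11 and without AZ16 and 6 without AZ10. Of the 23 genes higher with 5-Aza, 16 were still called without AG13 and 11 without AZ10, the fewest. Those called whichever of the 8 libraries was left out were 17: Ccnb1ip1, Mtmr9, Ifi44l, Adgrl4, Xlr4a, Slc16a11, Slc7a8, Tgfbr3, Sva, Cldn34c1 and 3830403N18Rik, higher with 5-Aza, and Itgae, Tlr11, Gpr141b, Ear1, Pnp2 and Cldn1, higher with AG-221. For the other called genes taken up in turn below, the libraries that ended each call are named.

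Between the vehicle arms of the same lines 506 accessions were called (4.28%), 228 higher in IDH2-FLT3 (1.93%) and 278 higher in TET2-FLT3 (2.35%). Of those 506, 22 were also called between the treated arms, all in the same direction, which is 4.35% of the 506 and 25% of the 88. The overlap is given for each direction. Of the 23 genes higher with 5-Aza, 11 (47.8%) were called in the same direction between the vehicle arms, with a median vehicle difference of -2.47. Of the 65 genes higher with AG-221, 11 (16.9%) were, with a median vehicle difference of -0.13. A difference of these shares was not tested. None of the 88 was called in the opposite direction between the vehicle arms. The difference between the treated arms minus that between the vehicle arms, tested in the same fit, was called for 27 accessions (0.228%), 24 positive and 3 negative, and 8 of the 88 were among them. It had 1831 unadjusted p under 0.05, against 1363 for the treated comparison itself. The vehicle count was 17 when only the 7 vehicle libraries were fitted, and ranged from 114 without V3 to 1656 without V5-2. The count of 27 was 0 (edgeR, 1390 unadjusted p under 0.05) when WT was left out of the fit, 0 without V3-2 (edgeR, 1557 unadjusted), 1 without V3, 9 without AZ16, 12 without AZ10, 16 without AZ11, 61 without AG1, 229 without V5-2 and 644 without V9. The vehicle columns V3 and V3-2 share a number, as do V5 and V5-2, and the labels do not say whether that marks 1 animal. With each such pair summed and counted as 1 library, the vehicle count was 149, the count of the difference of the differences was 14, of which 13 are among the 27, and the treated count was 97. Of the 88 genes, 17 were then called in the same direction between the vehicle arms, 11 of the 23 higher with 5-Aza and 6 of the 65 higher with AG-221.

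**Figure D1:**
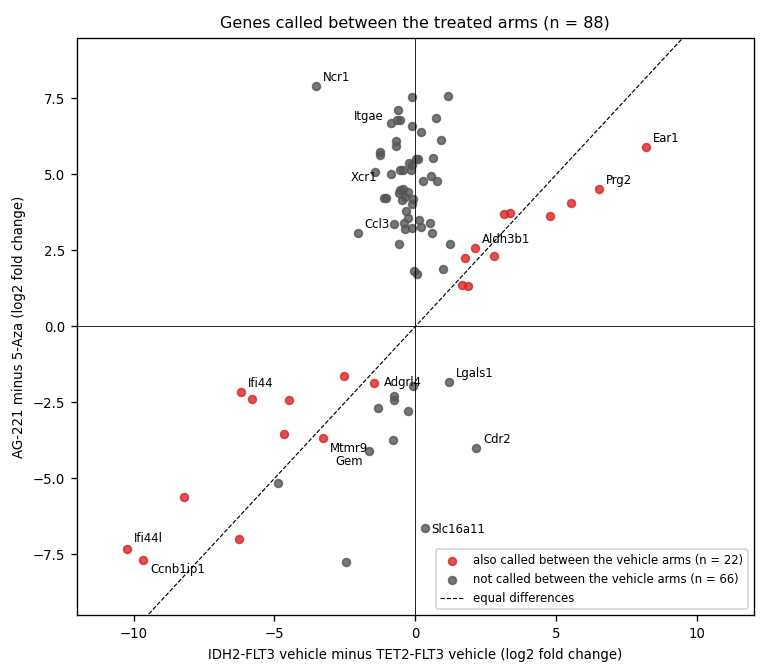
Log2 fold change between the treated arms (vertical) against that between the vehicle arms (horizontal) for the 88 called genes. Red points (22) were called in both comparisons and lie in the quadrants of equal sign. Most of the 65 genes above the horizontal line stand near 0 on the horizontal axis, where their median is -0.13. Values of genes with 0 counts in all libraries of an arm depend on the prior count of the fit.

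The 22 genes called in both comparisons included some that were nearly silent in the Idh2 R140Q;Flt3-ITD line with vehicle and with AG-221. Ccnb1ip1, which encodes a ubiquitin ligase of meiotic crossing over, stood at 0.302, 0.0770, 0.0842 and 0.195 CPM in the AG-221 libraries and 36.3, 42.4, 31.3 and 26.2 CPM in the 5-Aza libraries (log2 fold change -7.67 ± 0.68, adjusted p = 1.1e-06). With vehicle it was at 0.0160 ± 0.0278 CPM (SD, n = 3) in the IDH2-FLT3 line, 25.2 ± 12.8 CPM (SD, n = 4) in TET2-FLT3 vehicle and 16.3 ± 12.97 CPM (SD, n = 4) in WT. Its low level was thus seen in all 7 libraries of the Idh2 R140Q;Flt3-ITD line and in no library of the other groups. Ifi44l, an interferon-induced gene, showed the same order at 0.403, 0.0770, 0.0842 and 0 CPM in the AG-221 libraries and 16.9, 32.3, 20.3 and 21.9 CPM in the 5-Aza libraries (log2 fold change -7.31 ± 0.64, adjusted p = 1.1e-06). Its level was 0.128 ± 0.182 CPM in IDH2-FLT3 vehicle, 148 ± 28.3 CPM in TET2-FLT3 vehicle and 54.00 ± 28.5 CPM in WT.

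Mtmr9, a catalytically inactive myotubularin-related protein, had the smallest p of the comparison. It stood at 20.2, 23.9, 20.5 and 22.8 CPM in the AG-221 libraries and 229, 281, 317 and 293 CPM in the 5-Aza libraries (log2 fold change -3.68 ± 0.27, adjusted p = 1.1e-07), with narrow ranges that lay far apart. In vehicle it was at 40.2 ± 9.54 CPM in IDH2-FLT3 and 391 ± 139 CPM in TET2-FLT3 (log2 fold change -3.28 ± 0.30), and WT lay between the lines at 66.3 ± 7.04 CPM. Adgrl4, an adhesion receptor of endothelial and stem cells, was lower with AG-221 at 214, 153, 186 and 151 CPM in the AG-221 libraries and 793, 509, 724 and 505 CPM in the 5-Aza libraries (log2 fold change -1.85 ± 0.24, adjusted p = 7.0e-04). Its vehicle difference was -1.47 ± 0.27, and WT, at 947 ± 126 CPM, had a higher mean than the 4 leukemic groups. Xlr4a, of the X-linked lymphocyte-regulated family, was at 7.05, 8.47, 5.89 and 6.45 CPM in the AG-221 libraries and 25.8, 35.6, 42.3 and 46.1 CPM in the 5-Aza libraries (log2 fold change -2.42 ± 0.34, adjusted p = 0.00121). For this gene the vehicle difference was larger, -4.47 ± 0.44, and IDH2-FLT3 vehicle stood at 0.769 ± 0.452 CPM. Cldn34c1, a claudin family member, had 0 counts in all 7 libraries of the Idh2 R140Q;Flt3-ITD line and 0.971, 1.62, 0.759 and 1.53 CPM with 5-Aza, at least 18.3-fold higher (floor of 3 counts over the AG-221 arm). Sva, which encodes the seminal vesicle antigen, was at 0, 0, 0.253 and 0 CPM in the AG-221 libraries and 2.67, 3.56, 4.02 and 4.42 CPM in the 5-Aza libraries (log2 fold change -5.61 ± 0.91, adjusted p = 0.0106) and at 0 counts in every WT library.

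Ifi44, a relative of Ifi44l, also differed in both comparisons, but by different amounts. It was at 10.6, 6.31, 8.84 and 14.5 CPM in the AG-221 libraries and 39.2, 58.9, 32.1 and 50.5 CPM in the 5-Aza libraries (log2 fold change -2.17 ± 0.44, adjusted p = 0.0194), and its call ended without AG8, AG12, AZ10, AZ11 or AZ17 (adjusted p 0.0548 to 0.0681). In vehicle it was at 3.27 ± 3.12 CPM in IDH2-FLT3 and 235 ± 103 CPM in TET2-FLT3, a difference of -6.19 ± 0.59. The treated difference was smaller in size than the vehicle difference by 4.02 ± 0.66 on the log2 scale (adjusted p = 0.0140). Gbp2b, a guanylate-binding GTPase induced by interferon, was at 0.403, 0.693, 1.52 and 9.96 CPM in the AG-221 libraries and 25.2, 44.4, 38.01 and 35.9 CPM in the 5-Aza libraries (log2 fold change -3.52 ± 0.73, adjusted p = 0.0222). AG13 was high among the AG-221 libraries, the difference without it was -5.33 (adjusted p = 2.4e-04), and its call ended without AG8, AG12 or any 1 of the 5-Aza libraries (adjusted p 0.0540 to 0.0722). With AG13 included the difference was thus smaller. Sema3d, a secreted semaphorin, was at 1.41, 0.539, 0.926 and 1.95 CPM in the AG-221 libraries and 4.13, 7.11, 7.74 and 6.23 CPM in the 5-Aza libraries (log2 fold change -2.39 ± 0.50, adjusted p = 0.0247), and its call ended without AG8, AG12 or any 1 of the 5-Aza libraries (adjusted p 0.0549 to 0.108). Mamdc2, an extracellular matrix gene, was at 3.52, 4.85, 6.74 and 3.32 CPM in the AG-221 libraries and 14.8, 13.7, 19.7 and 9.56 CPM in the 5-Aza libraries (log2 fold change -1.64 ± 0.34, adjusted p = 0.0219), and its call ended without AG13, AZ10, AZ11 or AZ16 (adjusted p 0.0582 to 0.121).

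In the other direction, granule genes of eosinophils were higher in the Idh2 R140Q;Flt3-ITD line with and without drug. Prg2, the eosinophil major basic protein, was at 731, 1403, 1678 and 199 CPM in the AG-221 libraries and 15.6, 35.2, 79.4 and 43.8 CPM in the 5-Aza libraries (log2 fold change 4.53 ± 0.89, adjusted p = 0.0188), and its call ended without AZ10, AZ11 or AZ17 (adjusted p 0.0623 to 0.0906). AG13 was the lowest AG-221 library here. In vehicle Prg2 was at 1317 ± 1134 CPM in IDH2-FLT3 and 14.6 ± 16.96 CPM in TET2-FLT3 (log2 fold change 6.52 ± 0.996), and in WT at 130.4 ± 99.3 CPM. Ear1, an eosinophil-associated ribonuclease, was at 7.35, 11.1, 12.1 and 1.27 CPM in the AG-221 libraries and 0.0809, 0.323, 0 and 0.0902 CPM in the 5-Aza libraries (log2 fold change 5.91 ± 0.94, adjusted p = 0.00390). Its relative Ear6 was at 6.74, 6.54, 10.5 and 1.56 CPM in the AG-221 libraries and 0.404, 0.243, 0.228 and 0.632 CPM in the 5-Aza libraries (log2 fold change 4.06 ± 0.78, adjusted p = 0.0166), and its call ended without AZ10, AZ11 or AZ16 (adjusted p 0.0662 to 0.0897). A further relative, Ear2, was called only between the treated arms, at 1.91, 1.92, 4.80 and 5.67 CPM in the AG-221 libraries and 0.243, 0.404, 0.304 and 0.541 CPM in the 5-Aza libraries (log2 fold change 3.24 ± 0.64, adjusted p = 0.0191), and its call ended without AG13, AZ10, AZ11 or AZ16 (adjusted p 0.0642 to 0.103). Its vehicle difference was -0.12 ± 0.62, and the difference of the differences was 3.35 ± 0.89 (adjusted p = 0.103). The Ear genes are near-identical copies, so reads may be divided among them wrongly and their single values are uncertain.

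Over the list of mast cell, basophil and eosinophil genes, 4 of 21 tested members were higher with AG-221, where 0.549% of all accessions tested were, none was lower, and 17 did not pass, with a median of 1.16 (1.22 without AG13). Between the vehicle arms 8 members were called (7 with same-numbered columns summed), all higher in IDH2-FLT3, where 1.93% of all accessions tested were, with a median of 2.28. The mast cell protease Cpa3 and the basophil protease Mcpt8 had treated differences of -0.08 ± 0.60 and 0.14 ± 0.36, neither called (adjusted p = 0.982 and 0.937). Further genes called in both comparisons follow. With same-numbered vehicle columns summed, the vehicle difference was no longer called for Mcemp1 (adjusted p = 0.145), Clec4b2 (0.126), Aldh3b1 (0.102) and Slc28a2b (0.0648). It was still called for Crispld2 (0.0397), Arl11 (0.0276) and Eml5 (0.0388). Mcemp1, a mast cell and myeloid membrane protein, was at 9.26, 26.4, 85.6 and 70.05 CPM in the AG-221 libraries and 2.83, 5.42, 3.19 and 3.34 CPM in the 5-Aza libraries (log2 fold change 3.69 ± 0.74, adjusted p = 0.0194), and its call ended without AG13 or any 1 of the 5-Aza libraries (adjusted p 0.0530 to 0.103). Clec4b2, a C-type lectin of myeloid cells, differed by 3.73 ± 0.80, and its call ended without AG12, AG13 or any 1 of the 5-Aza libraries (adjusted p 0.0652 to 0.129). Crispld2, a secreted lipopolysaccharide-binding protein, differed by 3.63 ± 0.78, and its call ended without AG12, AG13 or any 1 of the 5-Aza libraries (adjusted p 0.0623 to 0.144). Aldh3b1, an aldehyde dehydrogenase, was at 6.85, 10.01, 23.7 and 20.2 CPM in the AG-221 libraries and 1.21, 2.02, 2.50 and 4.33 CPM in the 5-Aza libraries (log2 fold change 2.59 ± 0.50, adjusted p = 0.0166), and its call ended without AZ10, AZ11 or AZ16 (adjusted p 0.0642 to 0.0858). Arl11, a small GTPase of the ARF-like family, differed by 1.37 ± 0.26, and its call ended without AZ10, AZ11 or AZ16 (adjusted p 0.0530 to 0.0796). Eml5, a microtubule-associated protein, differed by 1.34 ± 0.31, and its call ended without AG12, AG13 or any 1 of the 5-Aza libraries (adjusted p 0.0921 to 0.172). Slc28a2b, a copy of a concentrative nucleoside transporter, differed by 2.32 ± 0.53, and its call ended without AG8, AG12, AG13 or any 1 of the 5-Aza libraries (adjusted p 0.0647 to 0.136).

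**Figure D2:**
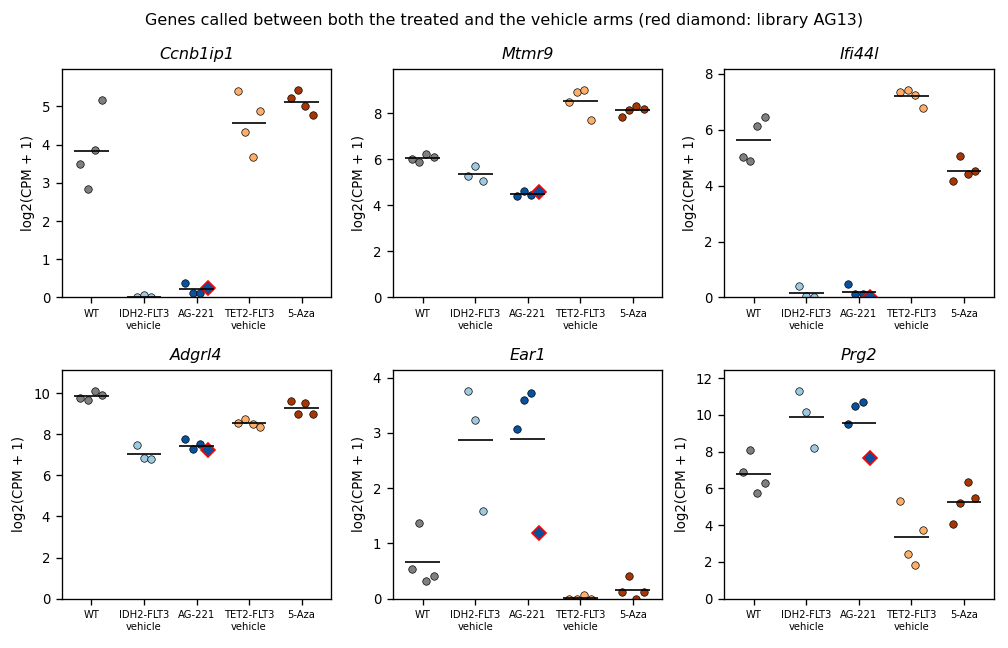
Levels of 6 genes called in both comparisons, as log2(CPM + 1), in every library of the 5 groups. Bars are group means of the plotted values and the red-edged diamond is AG13. Ccnb1ip1, Mtmr9, Ifi44l and Adgrl4 were low in both groups of the Idh2 R140Q;Flt3-ITD line, and Ear1 and Prg2 were high in them.

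The list with the most called genes was that of conventional dendritic cells, which take up antigen and present it to T cells. Of its 23 genes 18 were tested, of which 7 were higher with AG-221, where 0.549% of all accessions tested were, and none was lower. All 18 had a positive estimate. The median was 2.99, against -0.46 between the vehicle arms, where none was called. Without AG13 the median was 0.83 and 2 members were called; without AG1 it was 3.36 and 9 were called. The summed level of the whole list was 813, 871, 1038 and 4607 CPM in the AG-221 libraries and 416 to 767 CPM in the 5-Aza libraries. AG13 alone stood far above the rest. In the vehicle groups the sum was 1087 to 3734 CPM (IDH2-FLT3) and 1767 to 3306 CPM (TET2-FLT3), and in WT 769.5 to 880.2 CPM. The other 5 genes of the list were at 0 counts in both treated arms: Clec9a, a marker of a subset of these cells, Sirpa, Clec10a, Cadm1 and Naaa. An exact 0 in these data does not show that a gene was silent, since Ikzf1, Runx1 and Myc, which stem and progenitor cells use, and Canx, which encodes the chaperone calnexin of most cells, were also at 0 counts in both treated arms. Whether dendritic cells among the sorted cells contributed these counts was not tested.

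Itgae, the integrin chain CD103, was the member of the list whose call held without any 1 library. It was at 6.85, 7.24, 10.02 and 153 CPM in the AG-221 libraries and 0.324, 0.243, 0.379 and 0.632 CPM in the 5-Aza libraries (log2 fold change 6.79 ± 1.04, adjusted p = 0.00322). AG13 was more than 10 times the other AG-221 libraries, yet all 4 exceeded every 5-Aza library, and without AG13 the difference was 4.33 (adjusted p = 0.00107). Xcr1, the chemokine receptor of cross-presenting dendritic cells, was at 5.44, 23.02, 24.3 and 237 CPM in the AG-221 libraries and 1.05, 2.26, 3.57 and 1.98 CPM in the 5-Aza libraries (log2 fold change 5.02 ± 0.92, adjusted p = 0.0114), and without AG13 at 2.98 (adjusted p = 0.0361). AG1 was the lowest AG-221 library for Xcr1, and the call ended without AZ10 or AZ11 (adjusted p 0.0524 to 0.0613). Tlr3, a receptor for double-stranded RNA, was at 6.04, 10.9, 13.5 and 136 CPM in the AG-221 libraries and 1.05, 2.99, 2.81 and 1.80 CPM in the 5-Aza libraries (log2 fold change 4.26 ± 0.86, adjusted p = 0.0194), and its call ended without AG13 or any 1 of the 5-Aza libraries (adjusted p 0.0642 to 0.143). Ccl22, a chemokine of mature dendritic cells, was at 0.201, 2.31, 1.18 and 35.1 CPM in the AG-221 libraries and 0, 0.0808, 0 and 0.0902 CPM in the 5-Aza libraries (log2 fold change 7.58 ± 1.52, adjusted p = 0.0194), and its call ended without AG13 or any 1 of the 5-Aza libraries (adjusted p 0.0623 to 0.132). In the remaining called members AG13 was again the highest AG-221 library. Plbd1, a phospholipase B-like protein, differed by 4.21 ± 0.85, and its call ended without AG13 or any 1 of the 5-Aza libraries (adjusted p 0.0570 to 0.143). Cd209a, a C-type lectin, differed by 4.15 ± 0.87, and its call ended without AG13 or any 1 of the 5-Aza libraries (adjusted p 0.0524 to 0.233). Ifi205, an interferon-activated DNA-binding protein that is on the interferon list as well, differed by 4.53 ± 1.01, and its call ended without AG13 or any 1 of the 5-Aza libraries (adjusted p 0.0958 to 0.273). Batf3, a transcription factor of cross-presenting dendritic cells, was at 2.52, 3.16, 2.61 and 43.96 CPM in the AG-221 libraries and 0.324, 1.37, 0.304 and 1.62 CPM in the 5-Aza libraries but did not pass (3.85 ± 0.94, adjusted p = 0.0622).

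The levels in the other groups place these differences. Xcr1 was at 213, 263, 134 and 103 CPM with vehicle in the TET2-FLT3 line, 50.3, 30.4 and 214 CPM with vehicle in the IDH2-FLT3 line and 13.3 ± 4.65 CPM in WT. The 5-Aza libraries were thus the lowest of the 19, and AG13 and the IDH2-FLT3 vehicle library V9 stood with the TET2-FLT3 vehicle libraries. Itgae was at 89.7, 55.5, 60.01 and 49.8 CPM in TET2-FLT3 vehicle, 16.2, 13.4 and 91.6 CPM for IDH2-FLT3 vehicle and 0.511 ± 0.0640 CPM in WT. For Itgae the 5-Aza libraries overlapped WT. Over all 65 genes higher with AG-221, 5-Aza had the lowest of the 5 group means in 50 and was below WT in 57, and the TET2-FLT3 vehicle mean was above the AG-221 mean in 35. AG-221 had the highest group mean in 15. Because these genes were chosen as higher with AG-221 than with 5-Aza, the counts are partly set by that choice and test nothing.

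Genes of MHC class II, which displays peptides to helper T cells, were also highest in AG13 among the treated libraries. H2-Eb1 was at 102, 320.1, 282 and 3773 CPM in the AG-221 libraries and 24.3, 66.05, 35.4 and 89.8 CPM in the 5-Aza libraries (log2 fold change 4.38 ± 0.89, adjusted p = 0.0194), and its call ended without AG13 or any 1 of the 5-Aza libraries (adjusted p 0.0505 to 0.143). H2-Aa was at 158, 553, 427 and 4624.5 CPM in the AG-221 libraries and 35.9, 103, 53.5 and 221 CPM in the 5-Aza libraries (log2 fold change 3.80 ± 0.88, adjusted p = 0.0446), and its call ended without AG13 or any 1 of the 5-Aza libraries (adjusted p 0.0570 to 0.340). For H2-Aa the arms overlapped, since AG1 was below AZ17. Cd74, the invariant chain, was at 4.73, 31.3, 26.9 and 221 CPM in the AG-221 libraries and 1.29, 4.37, 3.87 and 5.41 CPM in the 5-Aza libraries and did not pass (4.24 ± 1.09, adjusted p = 0.0778). In all, 2 of 12 tested members were higher with AG-221, where 0.549% of all accessions tested were, 10 did not pass, and the median was 1.55 (0.56 without AG13, with none called, and -0.20 between the vehicle arms). Because H2 genes are close copies of each other, reads may be shared among them.

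AG13 was the highest of the treated libraries as well for a receptor that senses microbes and for further genes with large differences. Tlr11, a receptor for profilin of protozoa, was at 3.32, 8.39, 7.75 and 93.1 CPM in the AG-221 libraries and 0.324, 0.889, 0.228 and 0.361 CPM in the 5-Aza libraries (log2 fold change 5.94 ± 0.97, adjusted p = 0.00503). Without AG13 the difference was 3.83 (adjusted p = 0.00568). Gpr141b, an orphan receptor with a close copy, was at 1.81, 11.4, 9.598 and 99.6 CPM in the AG-221 libraries and 0, 0.243, 0.531 and 0.451 CPM in the 5-Aza libraries (log2 fold change 6.60 ± 1.08, adjusted p = 0.00536), and without AG13 at 4.60 (adjusted p = 0.00803). Both, with Itgae, also differed from the vehicle arms' difference, by 6.62 ± 1.27 for Tlr11 (adjusted p = 0.0300), 6.73 ± 1.39 for Gpr141b (adjusted p = 0.0434) and 7.45 ± 1.36 for Itgae (adjusted p = 0.0187). Cd207, the lectin langerin, was at 0.201, 2.77, 2.53 and 22.4 CPM in the AG-221 libraries and 0.0809, 0, 0.0759 and 0 CPM in the 5-Aza libraries (log2 fold change 7.12 ± 1.504, adjusted p = 0.0342), and its call ended without AG13 or any 1 of the 5-Aza libraries (adjusted p 0.106 to 0.143). Il12b, a subunit of interleukins that activate T cells, was at 0.302, 1.078, 0.589 and 40.7 CPM in the AG-221 libraries and 0, 0, 0.152 and 0.180 CPM in the 5-Aza libraries (log2 fold change 6.86 ± 1.56, adjusted p = 0.0422), and its call ended without AG13 or any 1 of the 5-Aza libraries (adjusted p 0.110 to 0.491). Septin3, a cytoskeletal GTPase, differed by 5.15 ± 0.92, and its call ended without AZ10 or AZ16 (adjusted p 0.0566 to 0.0574). Bcl2a1a, an anti-apoptotic BCL2 relative with close copies, differed by 6.10 ± 1.11, and its call ended without AZ10 or AZ16 (adjusted p 0.0566 to 0.0596). Asb2, a ubiquitin ligase subunit, differed by 6.70 ± 1.41, and its call ended without AG13 or any 1 of the 5-Aza libraries (adjusted p 0.0570 to 0.262). Slamf7, a receptor of the SLAM family on monocytes and lymphocytes, differed by 3.51 ± 0.78, and its call ended without AG13 or any 1 of the 5-Aza libraries (adjusted p 0.0742 to 0.280). It was the 1 called of 22 tested monocyte and macrophage genes, where 0.549% of all accessions tested were higher with AG-221. The median of that list was 0.91. Cxcl16, a chemokine and scavenger receptor, differed by 3.58 ± 0.81, and its call ended without AG13 or any 1 of the 5-Aza libraries (adjusted p 0.115 to 0.328).

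**Figure D3:**
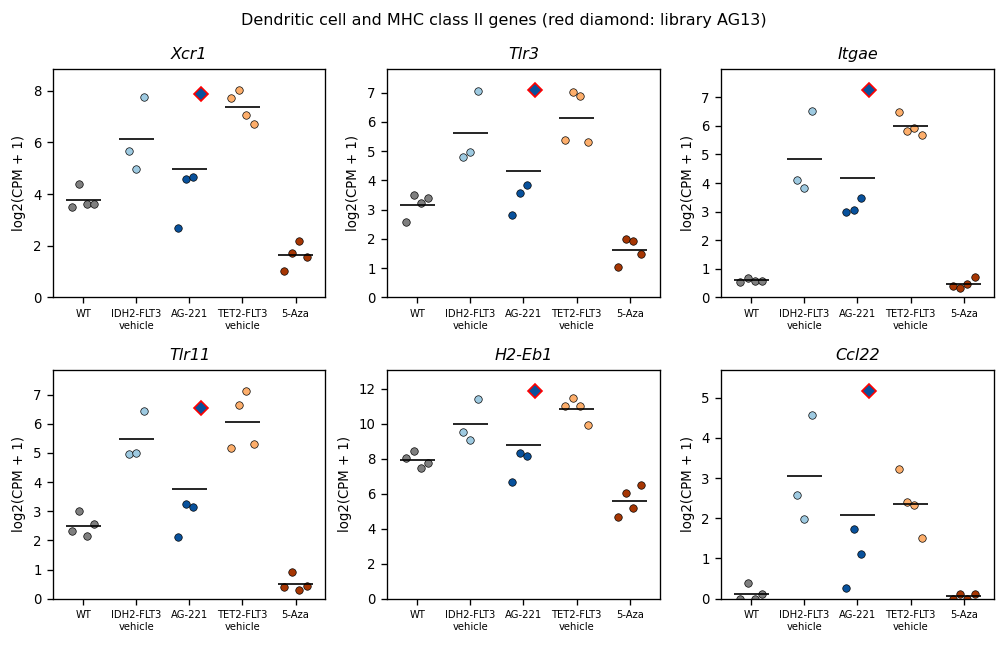
Levels of 6 dendritic cell, receptor and MHC class II genes, as log2(CPM + 1), in every library. Bars are group means of the plotted values and the red-edged diamond is AG13. For each gene AG13 is the highest AG-221 library. The 5-Aza libraries are at or below the WT level, except that for Itgae they overlap WT and AZ17 is above the WT mean. Both vehicle groups are above the WT level.

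Among genes higher with 5-Aza, Slc16a11, Tgfbr3 and Gem had lower levels in every library of the other leukemic groups than in any 5-Aza library, and their 5-Aza means were near those of WT. Slc16a11, a monocarboxylate transporter, was at 1.01, 0.154, 0 and 0 CPM in the AG-221 libraries and 11.7, 17.1, 52.9 and 30.9 CPM in the 5-Aza libraries (log2 fold change -6.63 ± 0.91, adjusted p = 0.00101). It was at 0.716 ± 0.355 CPM in IDH2-FLT3 vehicle, 0.575 ± 0.662 CPM in TET2-FLT3 vehicle and 43.7 ± 22.4 CPM in WT, so that 3 leukemic groups were near 0. Its vehicle difference was 0.34 ± 0.88, and the treated difference departed from it by -6.97 ± 1.24 (adjusted p = 0.0166). Tgfbr3, the co-receptor betaglycan of transforming growth factor beta, was at 10.3, 6.24, 8.42 and 4.30 CPM in the AG-221 libraries and 54.2, 26.6, 54.03 and 21.3 CPM in the 5-Aza libraries (log2 fold change -2.42 ± 0.42, adjusted p = 0.00919). WT stood at 49.7 ± 10.2 CPM and the vehicle groups at 3.44 ± 1.09 and 5.73 ± 2.99 CPM. Slc7a8, a transporter of large neutral amino acids, was at 18.1, 17.2, 16.3 and 17.1 CPM in the AG-221 libraries and 124, 63.2, 98.3 and 50.6 CPM in the 5-Aza libraries (log2 fold change -2.29 ± 0.38, adjusted p = 0.00596), with WT at 91.5 ± 22.7 CPM. Gem, a small GTPase, was at 0.906, 1.54, 3.28 and 2.83 CPM in the AG-221 libraries and 47.9, 9.86, 84.1 and 6.23 CPM in the 5-Aza libraries (log2 fold change -4.11 ± 0.83, adjusted p = 0.0194), and its call ended without AG8, AG13, AZ10 or AZ16 (adjusted p 0.0579 to 0.117). The 5-Aza libraries differed among themselves for Gem, with AZ10 and AZ16 high. For Tgfbr3, Slc7a8 and Gem the difference from the vehicle difference did not pass (adjusted p = 0.209, 0.199 and 0.402).

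Lgals1, the lectin galectin-1, was at 188, 140.1, 146 and 294 CPM in the AG-221 libraries and 628, 576, 639 and 908 CPM in the 5-Aza libraries (log2 fold change -1.84 ± 0.36, adjusted p = 0.0175), and its call ended without AG12, AZ10 or AZ17 (adjusted p 0.0541 to 0.0574). Here the vehicle estimate had the other sign, 1.21 ± 0.37, which was not called (adjusted p = 0.0689), and the difference between the 2 was -3.05 ± 0.52 (adjusted p = 0.0140). Cdr2, a cytoplasmic protein first known as a neuronal antigen, was likewise at 0, 0.154, 0.0842 and 0.0977 CPM in the AG-221 libraries and 2.35, 1.37, 1.67 and 0.722 CPM in the 5-Aza libraries (log2 fold change -3.99 ± 0.80, adjusted p = 0.0194) with a vehicle estimate of 2.16 ± 0.67, and its call ended without AG12, AG13, AZ10, AZ11 or AZ16 (adjusted p 0.0520 to 0.0868). Its difference of the differences was -6.15 ± 1.04 (adjusted p = 0.0140). For both genes the 5-Aza arm was the higher of the treated arms and the TET2-FLT3 arm the lower of the vehicle arms by the estimates. Selp, P-selectin of platelets and endothelium, was at 55.2, 23.3, 20.37 and 21.8 CPM in the AG-221 libraries and 136, 99.8, 167 and 65.9 CPM in the 5-Aza libraries (log2 fold change -1.96 ± 0.40, adjusted p = 0.0206); its call ended without AG8, AG12, AG13, AZ10, AZ11 or AZ16 (adjusted p 0.0524 to 0.113). It was the only called member of 16 megakaryocyte and platelet genes tested (median -0.02), where 0.194% of all accessions tested were higher with 5-Aza. Rag2, a subunit of the recombinase of lymphocyte receptor genes, was at 0.503, 0.693, 2.02 and 1.27 CPM in the AG-221 libraries and 4.85, 5.66, 12.4 and 6.23 CPM in the 5-Aza libraries (log2 fold change -2.68 ± 0.56, adjusted p = 0.0247); its call ended without AG8, AG13 or any 1 of the 5-Aza libraries (adjusted p 0.0506 to 0.128). It was the only called member of 19 lymphoid-primed progenitor genes tested (median -0.21), where the same 0.194% applies. Cox6a2, listed with plasmacytoid dendritic cells, was at 0.503, 0.616, 0.421 and 1.27 CPM in the AG-221 libraries and 2.91, 2.26, 3.26 and 10.8 CPM in the 5-Aza libraries (log2 fold change -2.77 ± 0.63, adjusted p = 0.0417); its call ended without any 1 of the AG-221 libraries or any 1 of the 5-Aza libraries (adjusted p 0.0524 to 0.168).

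Pnp2, Ccl3, Pgr and Gdf10 were higher with AG-221 in all 4 libraries, and AG13 did not stand apart from the other 3. Pnp2, a copy of purine nucleoside phosphorylase, was at 41.98, 44.1, 34.2 and 45.2 CPM in the AG-221 libraries and 11.00, 13.1, 10.8 and 15.5 CPM in the 5-Aza libraries (log2 fold change 1.72 ± 0.26, adjusted p = 0.00312). Its libraries were even within each arm, and the vehicle groups were at 12.8 ± 2.46 CPM and 12.2 ± 3.45 CPM, close to 5-Aza. The difference from the vehicle difference did not pass for it (adjusted p = 0.0672). Ccl3, an inflammatory chemokine, was at 49.4, 16.01, 10.9 and 30.7 CPM in the AG-221 libraries and 1.38, 6.47, 0.607 and 4.24 CPM in the 5-Aza libraries (log2 fold change 3.08 ± 0.58, adjusted p = 0.0144), and its call ended without AZ10 (adjusted p = 0.0699). The vehicle estimate for Ccl3 had the opposite sign, -2.03 ± 0.61 (adjusted p = 0.0622), and the difference between the 2 was 5.11 ± 0.85 (adjusted p = 0.0140). Pgr, the progesterone receptor, was at 32.5, 3.39, 10.1 and 11.3 CPM in the AG-221 libraries and 0.324, 0.0808, 0.531 and 0.0902 CPM in the 5-Aza libraries (log2 fold change 5.72 ± 1.16, adjusted p = 0.0194), with AG1 the highest; its call ended without any 1 of the 5-Aza libraries (adjusted p 0.0705 to 0.0868). Gdf10, a ligand of the transforming growth factor beta family, was at 29.6, 9.24, 17.5 and 34.00 CPM in the AG-221 libraries and 0, 1.13, 0.152 and 0.992 CPM in the 5-Aza libraries (log2 fold change 5.30 ± 1.20, adjusted p = 0.0417); its call ended without AG12, AG13 or any 1 of the 5-Aza libraries (adjusted p 0.0548 to 0.178). Cldn1, a tight junction protein, was at 0.302, 4.54, 9.26 and 16.8 CPM in the AG-221 libraries and 0, 0.323, 0.455 and 0.180 CPM in the 5-Aza libraries (log2 fold change 4.94 ± 0.84, adjusted p = 0.00688), where AG1 was below AZ11 and AZ16 and the arms overlapped. Ccl3 and Cxcl16 were the 2 called of 20 tested NF-kB and chemokine genes, where 0.549% of all accessions tested were higher with AG-221. The median of that list was 0.18.

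Of 24 tested stem cell genes, 2 were higher with AG-221, where 0.549% of all accessions tested were, none was lower and 22 did not pass. Gprc5c, a receptor that marks dormant stem cells, was at 0.302, 2.16, 3.20 and 12.6 CPM in the AG-221 libraries and 0.0809, 0.243, 0.0759 and 0 CPM in the 5-Aza libraries (log2 fold change 5.36 ± 0.98, adjusted p = 0.0117); its call ended without AZ10 or AZ16 (adjusted p 0.0605 to 0.0621). Sult1a1, a sulfotransferase, was at 3.22, 16.3, 9.01 and 109 CPM in the AG-221 libraries and 3.24, 2.10, 3.04 and 4.51 CPM in the 5-Aza libraries (log2 fold change 3.41 ± 0.74, adjusted p = 0.0325); its call ended without AG13 or any 1 of the 5-Aza libraries (adjusted p 0.0742 to 0.280). In both, AG13 was the highest AG-221 library. The median of the list was -0.29, against -0.94 between the vehicle arms, where 5 members were called (3 with same-numbered columns summed), all lower in IDH2-FLT3, as 2.35% of all accessions tested were. Hlf and Procr, a transcription factor and a receptor of stem cells, differed by -0.48 ± 0.42 and -0.32 ± 0.34 between the treated arms (adjusted p = 0.725 and 0.786). Of 21 tested T and NK cell genes 2 were higher with AG-221, where 0.549% of all accessions tested were, and the median was 0.37. Between the vehicle arms the median of that list was -2.04, and 1 member was called, lower in IDH2-FLT3, as 2.35% of all accessions tested were. Ncr1, a receptor of NK cells, had 0 counts in every 5-Aza library and 0, 1.85, 1.01 and 6.35 CPM with AG-221, at least 37.6-fold higher over the arm (floor of 3 counts), although AG1 was also at 0; its call ended without AG8, AG13 or any 1 of the 5-Aza libraries (adjusted p 0.0579 to 0.144). Cd2, an adhesion receptor of T and NK cells, was at 0, 1.31, 1.60 and 1.07 CPM in the AG-221 libraries and 0, 0, 0.0759 and 0 CPM in the 5-Aza libraries (log2 fold change 5.09 ± 1.19, adjusted p = 0.0474); its call ended without AG8, AG12, AG13 or any 1 of the 5-Aza libraries (adjusted p 0.0783 to 0.176).

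**Figure D4:**
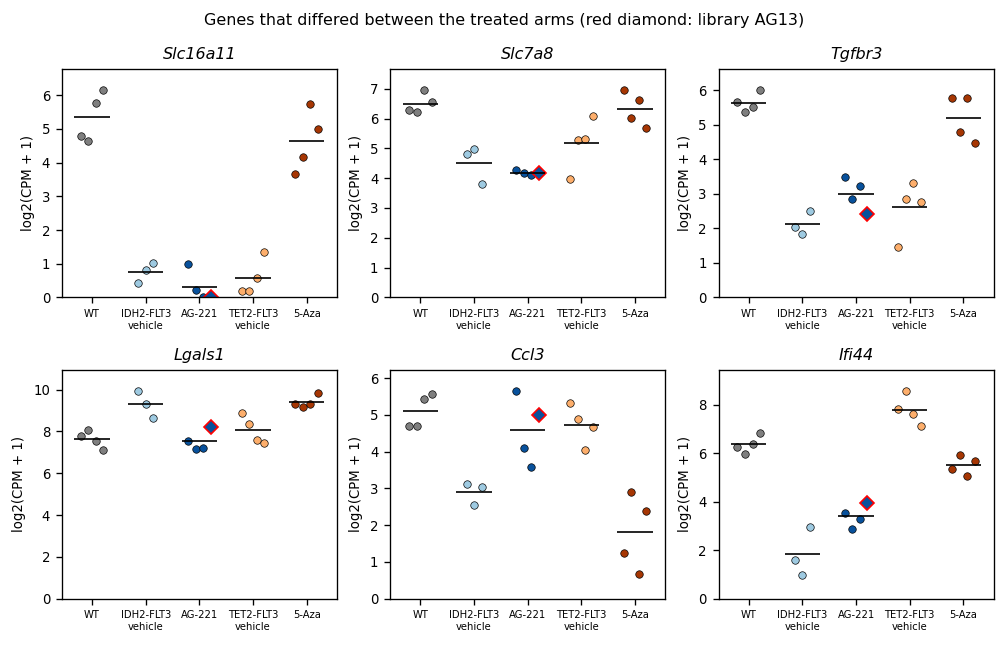
Levels of 6 genes called between the treated arms, as log2(CPM + 1), in every library. Bars are group means of the plotted values and the red-edged diamond is AG13. Slc16a11, Slc7a8 and Tgfbr3 stand near WT with 5-Aza, the estimates of Lgals1 and Ccl3 have opposite signs between the treated and between the vehicle arms, and Ifi44 was called in both.

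Interferon-induced genes, which are switched on by interferon receptors and by sensors of nucleic acids, were lower in IDH2-FLT3 than in TET2-FLT3 between the vehicle arms in 23 of 55 tested members (16 with same-numbered columns summed), where 2.35% of all accessions tested were. Between the treated arms, where 0.744% of all accessions tested were called, 3 members were called (Ifi205 higher with AG-221, Ifi44 and Ifi44l lower) and 52 did not pass. An unadjusted p under 0.05 was found for 12 members, and for 1363 of all 11830 accessions tested. The treated arms did not overlap for 4 members that were higher with AG-221 and 11 that were higher with 5-Aza. Of all accessions tested, 10.7% did not overlap in 1 direction or the other. The median was -0.13. Between the vehicle arms no member was called higher in IDH2-FLT3, and the median was -1.32. The difference of the differences was called for 6 members (3 with same-numbered columns summed), where 0.228% of all accessions tested were called, and its median over the list was 1.34, against 0.036 for all accessions tested. Summed over the list, the level was 3163 to 4190.2 CPM with AG-221, 3534 to 5788 CPM with 5-Aza, 1975 to 3577 CPM for IDH2-FLT3 vehicle and 5194 to 7461 CPM in TET2-FLT3 vehicle. The treated arms overlapped in this sum, and the vehicle arms did not.

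Many interferon-induced promoters hold the core of the interferon-stimulated response element, where the factors activated by interferon bind. The core was searched as GAAANNGAAA, or TTTCNNTTTC on the other strand, in the 300 bases around each start (250 before, 50 after) of RefSeq promoters on GRCm38.p6. It was in 3.44% of all 32851 windows. Of the 55 tested interferon-induced genes, 44 had a window and 22 of these held it (50.0%). Of the 65 genes higher with AG-221, 54 had a window and 10 of these held it (18.5%). The 3.44% counts windows while the 50.0% and 18.5% count genes, so they are not like for like, and no difference of these shares was tested. For the 23 genes higher with 5-Aza and for the 24 with a positive difference of the differences, fewer than 80% of genes had a window, so their shares are void. The stretches are shown because they carry this element in genes that differed between the arms or from the vehicle difference. Only genes with a match are shown. The windows of Ifi44 and Ifi44l, the members of the interferon list called lower with AG-221, held 0 matches. Each is the 150 bases before the start, 5′ to 3′ on the gene's strand, with the core in capitals, neighbouring matches in Isg15 overlapping each other. A match describes the letters only.
Ifit1: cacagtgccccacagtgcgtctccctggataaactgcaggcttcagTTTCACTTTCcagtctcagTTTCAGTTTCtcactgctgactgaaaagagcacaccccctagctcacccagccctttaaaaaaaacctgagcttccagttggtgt
Isg15: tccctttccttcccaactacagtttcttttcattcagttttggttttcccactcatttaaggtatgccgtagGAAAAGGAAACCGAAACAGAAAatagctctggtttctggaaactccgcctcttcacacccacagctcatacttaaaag
Rsad2: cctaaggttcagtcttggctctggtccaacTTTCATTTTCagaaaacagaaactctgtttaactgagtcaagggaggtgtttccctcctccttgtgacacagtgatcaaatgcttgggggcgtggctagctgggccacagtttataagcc
Gbp2: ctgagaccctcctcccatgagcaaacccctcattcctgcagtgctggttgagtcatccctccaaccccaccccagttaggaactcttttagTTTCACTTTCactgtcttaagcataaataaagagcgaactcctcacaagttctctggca
Gbp2b: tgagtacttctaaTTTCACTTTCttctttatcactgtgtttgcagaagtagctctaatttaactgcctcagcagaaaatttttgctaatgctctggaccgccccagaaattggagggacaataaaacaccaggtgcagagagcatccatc
Ifi205: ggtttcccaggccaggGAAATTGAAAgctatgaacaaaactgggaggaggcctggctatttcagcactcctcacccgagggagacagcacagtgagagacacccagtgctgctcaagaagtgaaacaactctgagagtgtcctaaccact
Tlr11: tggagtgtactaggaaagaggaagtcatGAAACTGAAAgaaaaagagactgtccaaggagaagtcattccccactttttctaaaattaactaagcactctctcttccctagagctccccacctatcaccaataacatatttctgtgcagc
Gpr141b: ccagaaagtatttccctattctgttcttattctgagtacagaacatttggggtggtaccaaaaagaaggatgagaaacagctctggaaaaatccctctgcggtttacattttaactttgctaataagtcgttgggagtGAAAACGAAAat

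In GRCm38.p6 the stretches lie at chr19:34640739-34640888 (plus strand, Ifit1), chr4:156200819-156200968 (minus strand, Isg15), chr12:26456453-26456602 (minus strand, Rsad2), chr3:142620513-142620662 (plus strand, Gbp2), chr3:142594697-142594846 (plus strand, Gbp2b), chr1:174031756-174031905 (minus strand, Ifi205), chr14:50357764-50357913 (plus strand, Tlr11) and chr13:19732952-19733101 (minus strand, Gpr141b). The core begins 104 bases before the start in Ifit1, where it occurs 2 times, 78 in Isg15, where it occurs 3 times, and 12 in Gpr141b.

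Ifit1, which binds viral RNA, was at 5.64, 6.62, 7.49 and 5.86 CPM in the AG-221 libraries and 11.7, 15.1, 10.4 and 10.9 CPM in the 5-Aza libraries (log2 fold change -0.91 ± 0.36, adjusted p = 0.313). The arms did not overlap but the difference did not pass. Its vehicle difference was -4.43 ± 0.47 (adjusted p = 1.3e-05), and the difference of the differences was 3.52 ± 0.56 (adjusted p = 0.0140). Isg15, a ubiquitin-like modifier, was at 12.9, 13.4, 14.4 and 19.4 CPM in the AG-221 libraries and 19.7, 23.04, 21.4 and 26.4 CPM in the 5-Aza libraries (log2 fold change -0.59 ± 0.34, adjusted p = 0.530), with a vehicle difference of -3.09 ± 0.41 and a difference of the differences of 2.50 ± 0.52 (adjusted p = 0.0434). Rsad2, the antiviral enzyme viperin, was at 18.9, 14.9, 23.6 and 29.9 CPM in the AG-221 libraries and 12.3, 18.5, 14.1 and 16.1 CPM in the 5-Aza libraries, so that the arms overlapped (log2 fold change 0.52 ± 0.38, adjusted p = 0.664). Its vehicle difference was -2.97 ± 0.46, and the difference of the differences 3.49 ± 0.59 (adjusted p = 0.0140). Gbp2, a guanylate-binding GTPase, was at 47.01, 46.6, 51.6 and 71.9 CPM in the AG-221 libraries and 41.7, 41.3, 38.7 and 41.3 CPM in the 5-Aza libraries, slightly higher with AG-221 in all 4 libraries but not called (log2 fold change 0.41 ± 0.21, adjusted p = 0.474). Its vehicle difference was -1.38 ± 0.24, and the difference of the differences 1.79 ± 0.32 (adjusted p = 0.0166). Trim34a, a tripartite motif protein, had 0.54 ± 0.27 and -1.55 ± 0.30 in the treated and vehicle comparisons, and a difference of 2.09 ± 0.41 (adjusted p = 0.0300). With same-numbered vehicle columns summed, the difference of the differences was no longer called for Trim34a (adjusted p = 0.0502), Rsad2 (0.0547), Isg15 (0.125), Itgae (0.0947), Tlr11 (0.137) and Gpr141b (0.166), and it was still called for Ifit1 (0.00605), Ifi44 and Gbp2 (both 0.0466).

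Genes of the neutrophil list, some of which encode antimicrobial proteins stored by granulocytes, differed widely within the AG-221 arm. Of 21 tested members none was called between the treated arms by edgeR. Even so, 16 had an unadjusted p under 0.05 (as did 1363 of all 11830 accessions tested) and 20 had a positive estimate, with a median of 2.84. Without AG1, 14 members were called and the median was 3.21. Between the vehicle arms 11 members were called (1 with same-numbered columns summed), all higher in IDH2-FLT3, as 1.93% of all accessions tested were, with a median of 2.82. The list summed to 2708, 7661, 31358 and 18727 CPM in the AG-221 libraries and to 1546 to 3541 CPM in the 5-Aza libraries. Ltf, lactoferrin, was at 59.2, 383, 1239 and 329.8 CPM in the AG-221 libraries and 21.4, 74.5, 38.1 and 59.2 CPM in the 5-Aza libraries (log2 fold change 3.38 ± 0.86, adjusted p = 0.0759). Chil3, a chitinase-like protein, was at 82.8, 415, 1829 and 1130.1 CPM in the AG-221 libraries and 29.1, 76.1, 34.6 and 79.5 CPM in the 5-Aza libraries (log2 fold change 3.98 ± 0.97, adjusted p = 0.0613), so that AG1 was close to 5-Aza and AG12 far above. The granulocyte-monocyte progenitor list had none called of 24 tested, with 6 unadjusted p under 0.05 and a median of 0.39. Between the vehicle arms 9 of its members were called (2 with same-numbered columns summed), all higher in IDH2-FLT3, as 1.93% of all accessions tested were, with a median of 1.18. Mpo, myeloperoxidase, was at 2877, 4434, 5885 and 1806 CPM in the AG-221 libraries and 2069.7, 2309, 2662 and 1902 CPM in the 5-Aza libraries (log2 fold change 0.75 ± 0.58, adjusted p = 0.679), with a vehicle difference of 3.21 ± 0.65. Elane, neutrophil elastase, was at 2247, 3088, 8544 and 2439.9 CPM in the AG-221 libraries and 1189, 1208, 1578 and 1429 CPM in the 5-Aza libraries (log2 fold change 1.59 ± 0.62, adjusted p = 0.294).

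Lists for the pathways of the alleles and drugs held no called gene. Beside the counts given here and in the next paragraph, 1363 of all 11830 accessions tested had an unadjusted p under 0.05. For edgeR none was called of 15 DNA methylation and demethylation genes (2 unadjusted p under 0.05, median -0.02; the same pair of values follows for each list), of 37 2-oxoglutarate dioxygenases (4, -0.18), of 34 isocitrate and TCA cycle genes (2, -0.21) or of 27 azanucleoside uptake and metabolism genes (1, -0.07). Egln1, an oxygen-sensing dioxygenase, had -0.86 ± 0.27 (adjusted p = 0.148). Dnmt1, Dnmt3a and Dnmt3b, the DNA methyltransferases, did not pass the expression filter. Failing it does not show that a gene was silent, since Kit, a marker of the sort, failed it as well. None was called of 35 Flt3, Kit and cytokine receptor genes (7, 0.07), 14 STAT5 targets (3, 0.06) or 16 MAPK feedback genes (8, -0.86). The MAPK feedback median lay farthest below 0 of the 40 lists. In that list Dusp7, a phosphatase of ERK, had -1.02 ± 0.27 (adjusted p = 0.0933), and Ccnd1, cyclin D1, was at 7.85, 5.85, 9.51 and 60.3 CPM in the AG-221 libraries and 122, 25.95, 119 and 43.03 CPM in the 5-Aza libraries (log2 fold change -1.90 ± 0.63, adjusted p = 0.198). AG13 was the high library for Ccnd1, and without it the difference was -3.32 (adjusted p = 0.00732). The erythroid list had none called of 23 (5, -0.75), and Gata1, its leading transcription factor, had -1.48 ± 0.49 (adjusted p = 0.188). The Hox list had none called of 17 (2, 0.24). Between the vehicle arms 5 of its members were called (2 with same-numbered columns summed), all lower in IDH2-FLT3, as 2.35% of all accessions tested were, with a median of -1.04.

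The remaining lists had at most 2 called members, where 0.744% of all accessions tested were called. With edgeR none was called of 32 S phase genes (3 unadjusted p under 0.05, median -0.11; the same pair of values follows for each list), 33 mitosis and G2/M genes (1, -0.23), 24 p53 targets (5, 0.13), 27 hypoxia and glycolysis genes (4, -0.14) and 51 respiratory chain genes (4, -0.08). None was called either of 25 unfolded protein response genes (1, -0.01), 71 cytosolic ribosomal proteins (4, 0.07), 17 MHC class I genes (0, 0.08) and 12 imprinted genes (0, 0.21). Nor was any of 30 histone methylation and Polycomb genes (2, -0.10), 38 hematopoietic transcription factors (11, 0.09), 21 immediate-early genes (4, 0.08), 23 serine, glycine and one-carbon genes (2, -0.16), 19 B cell genes (6, -0.37), 9 endothelial and stromal genes (3, -0.19) and 4 germline genes (0, 0.09). Plasmacytoid dendritic cell genes had Cox6a2 alone called of 16 (5, 0.65). Of 30 integrins and adhesion genes Itgae and Selp were called (7, 0.12), and of 35 aldehyde dehydrogenase and detoxification genes Aldh3b1 (5, 0.07). The biological coefficient of variation between libraries of a group was 42.9%, and with 4 libraries an arm it limits what these counts can show.

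**Figure D5:**
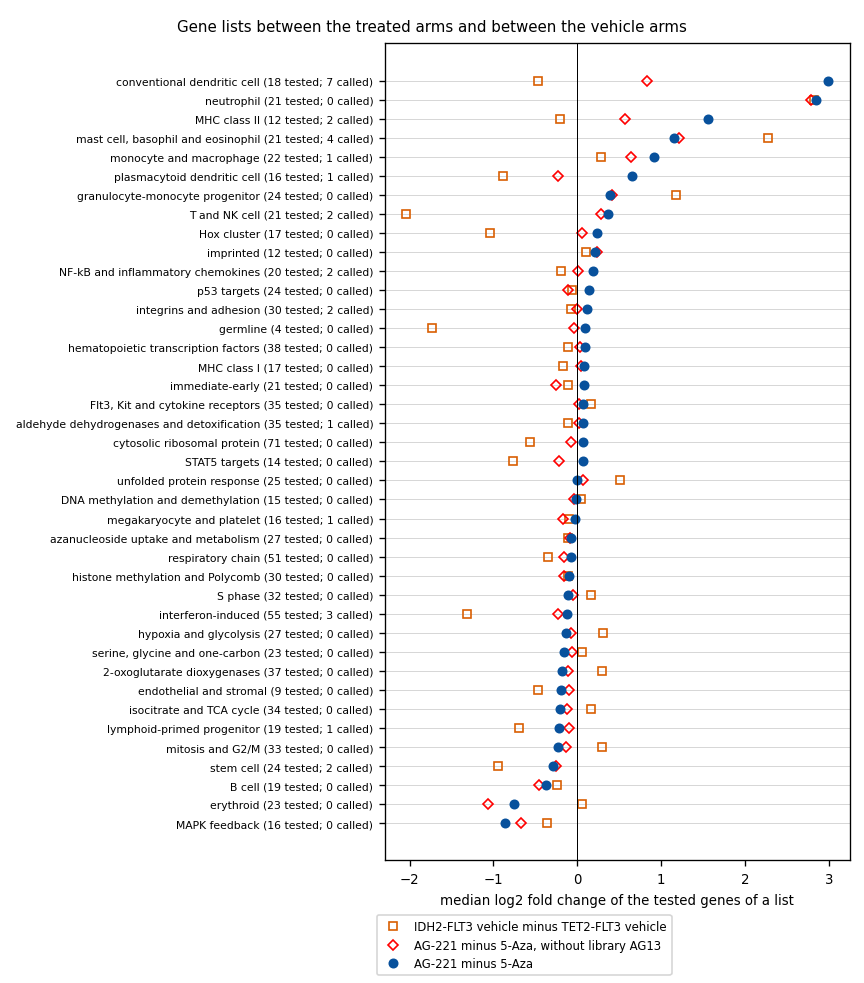
Median log2 fold change of the tested genes of each of the 40 lists, between the treated arms (blue), between the treated arms without AG13 (red diamonds) and between the vehicle arms (orange squares). The dendritic cell and MHC class II medians move toward 0 without AG13 (from 2.99 to 0.83 and from 1.55 to 0.56), and the neutrophil median moves from 2.84 to 2.78.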

How the data were processed

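RNA was amplified with a low-input polyA kit, per the labels' protocols. Reads were aligned with STAR 2.4.0f1 and counted with featureCounts of Subread 1.4.5-p1 on mm9, per the submitters' processing notes; whether strand was used is not given in the sources used here. The authors deposited raw counts and FPKM values per accession for 19 libraries. Of 33862 accessions, RefSeq gave names for 33485 and GENCODE for 188, while 189 without a name held 3.47% of counts. Columns were matched to groups by their headers. The members and gene lists were chosen with earlier results of these data known.

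All 5 groups were fitted together to the counts (R 4.3.3, edgeR 4.0.16, TMM, quasi-likelihood test, Benjamini-Hochberg adjustment over 11830 accessions kept by filterByExpr with a minimum count of 10). The arms were compared without covariates. P-values measure only the spread between libraries, which may be technical. Levels are CPM on TMM-scaled library sizes. Alternatives used DESeq2 1.42.0, limma 3.58.1 (voom, and limma-trend on log2 of the deposited FPKM), other filters and normalization, a fold minimum of 1.5, fewer groups, each library left out and, added after seeing the data, same-numbered vehicle columns summed. The script was tested on simulated data. Named genes were those of the alleles and drugs, the 12 largest called differences each way with a mean of at least 5 CPM in the higher arm and arms that do not overlap, called members of lists, and the smallest p of the difference of the differences. Other genes in the text were named after their values were seen. Promoter sequences are RefSeq's on GRCm38.p6.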

Additional observations from a re-analysis of the deposited data

Results flagged for a closer look

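For 23 of the genes described, library AG13 stood apart above the other 3 AG-221 libraries, with a gap to the nearest library above the 95% critical value of Dixon's ratio of gap to range. The dendritic cell, MHC class II and receptor genes among them were Itgae at 153 CPM, Xcr1 at 237 CPM, Tlr3 at 136 CPM, Ccl22 at 35.1 CPM, Plbd1 at 638 CPM, Cd209a at 130.03 CPM, Ifi205 at 159 CPM, Tlr11 at 93.1 CPM, Cd207 at 22.4 CPM, Il12b at 40.7 CPM, H2-Aa at 4624.5 CPM, H2-Eb1 at 3773 CPM, Gpr141b at 99.6 CPM, Batf3 at 44.0 CPM and Cd74 at 221 CPM. The others were Gbp2b at 9.96 CPM, Septin3 at 184 CPM, Bcl2a1a at 76.7 CPM, Asb2 at 27.9 CPM, Slamf7 at 167 CPM, Cxcl16 at 31.4 CPM, Sult1a1 at 109 CPM and Ccnd1 at 60.3 CPM. For Gbp2b and Ccnd1, which were lower with AG-221, the difference was larger without AG13. Over the 160 gene and arm pairs examined, 32 (20%) had such a library. Chance gives about 1 in 20 for independent values from a normal distribution, but the genes vary together and the CPM values are skewed, so the share cannot be read as an excess. In 3 of the 32 pairs the other 3 libraries were at 0 counts, which makes the ratio 1 whatever the value, so that 29 are left.

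In the remaining pairs other libraries stood apart. AG12 was apart and high for Sva (0.253 CPM) and Elane (8544 CPM), and AG1 for Slc16a11 (1.01 CPM) and Selp (55.2 CPM). Among the 5-Aza libraries, AZ17 was apart and high for Asb2 (0.271 CPM) and Cox6a2 (10.8 CPM), AZ16 was low for Gbp2 (38.7 CPM) and high for Cd2 (0.0759 CPM), and AZ11 was high for Clec4b2 (1.29 CPM). Sva, Asb2 and Cd2 are the pairs with the other 3 libraries at 0 counts, and their values show nothing.

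The difference between the treated arms departed from that between the vehicle arms, by edgeR's test of the difference of the differences, for 13 of the genes described, 7 of which kept the call when same-numbered vehicle columns were summed. On the log2 scale the departures were Ifi44 by 4.02, Itgae by 7.45, Tlr11 by 6.62, Gpr141b by 6.73, Slc16a11 by -6.97, Lgals1 by -3.05, Cdr2 by -6.15, Ccl3 by 5.11, Ifit1 by 3.52, Isg15 by 2.50, Rsad2 by 3.49, Gbp2 by 1.79 and Trim34a by 2.09. The arms of these tests differ in drug as well as in line, and the AG-221 and 5-Aza libraries are compared with vehicle libraries of their own line.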

How the results depend on the processing

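The 88 calls between the treated arms became 248 without an expression filter, 47 with a fold minimum of 1.5, 944 with limma-voom, 49 with log2 of FPKM plus 1 and 372 with DESeq2, and 18 (without AZ10) to 197 (without AG1) with 1 library left out. The 506 calls between the vehicle arms became 247 with the fold minimum, 17 with only those arms fitted, 192 with limma-voom, 149 with same-numbered columns summed and 1150 with DESeq2, and 114 (without V3) to 1656 (without V5-2) with 1 library left out. The 27 calls of the difference of the differences became 185 without a filter, 44 with a stricter filter, 14 with the fold minimum and 14 with same-numbered vehicle columns summed (chosen after seeing the data), 0 without WT in the fit (edgeR; 1390 unadjusted p under 0.05), 92 with limma-voom, 45 and 98 with log2 of FPKM plus 1 and plus 0.1, 364 with DESeq2, and 0 (without V3-2) to 644 (without V9) with 1 library left out. With 1 treated library left out, chosen after seeing the data, the called members were 1 to 9 of the dendritic cell list, 0 to 4 of MHC class II, 1 to 4 of mast cell, basophil and eosinophil genes, 1 to 4 of interferon-induced genes, and 0 to 14 of neutrophil genes. The cause of these changes was not tested.

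Of 58 called genes followed, 12 were called under each of the 18 alternatives that tested them. These were Ccnb1ip1, Ifi44l, Mtmr9, Adgrl4, Xlr4a, Slc16a11, Slc7a8, Tgfbr3, Sva, Cldn34c1, Ear1 and Pnp2. Not every alternative tested every gene: the stricter filter tested 53 of the 58, and the fit of only the groups compared tested 48. Of the 10 alternatives that left no library out, Cldn34c1 was called in 8 and Sva in 9. None of the 58 genes changed its direction under any alternative that tested it. With 4 libraries an arm and the depths given above, genes near the expression filter have few counts in the lower arm, and counts in an arm at 0 give only a lower bound. No paired analysis was possible because the table's columns do not carry the replicate numbers of the sample titles.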

Other observations

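Several called genes lie close together, as seen after their values were known and with no test. By the gene order of GRCm38.p6, Adgrl4, Ifi44 and Ifi44l on chromosome 3 are consecutive among the 529 tested genes with a place in that order, all 3 lower with AG-221 and lower in IDH2-FLT3 vehicle than in TET2-FLT3 vehicle. Gbp2b, with the same directions, lies before them with 20 tested genes between, and Tet2 before Gbp2b with 21 between. Chromosome 14 held 12 of the 88 called accessions (13.6%) and 3.50% of the accessions tested. These were Mtmr9, Ccnb1ip1 and Slc7a8, higher with 5-Aza, and 9 higher with AG-221, Ear1, Ear2, Ear6, Pnp2, Tlr11, Arl11 and Gdf10 among them. On that chromosome Ear1 and Ear2 are neighbours, and Tlr11 and Ccnb1ip1, which differed in opposite directions, have 1 tested gene between them.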
